A study of Oryza sativa Indica Group with 27 samples.

Results

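The mRNA of rice plants overexpressing the transcription factor gene *OsERF71* was compared with that of wild-type plants after 6 h of dehydration. The comparison rests on 2 of the 27 samples of the series, 1 library from wild-type Nipponbare (WT) and 1 from Nipponbare carrying the *OsERF71* transgene (*erf71*). Nipponbare is a japonica cultivar. Both plants were grown in Yoshida's culture solution at 29°C under 16 h of light and 8 h of darkness, and dehydration was applied at the three-leaf stage by taking the culture solution away. Whole plants, roots included, were frozen, so each library averages over all tissues. Time is given as hours after treatment (HAT). The libraries of untreated plants (0 HAT) and of plants at 1 HAT, again 1 for WT and 1 for *erf71* at each time, were used to see whether a difference at 6 HAT was present earlier. The promoter of the transgene, the number of transgenic lines and the number of plants in a library were not given in the sources used here.

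Members of the AP2/ERF family, to which OsERF71 belongs, bind short promoter elements such as the GCC box and the dehydration-responsive element, and many of them switch on protective genes when water is lost. In the early hours of dehydration, plants induce a wave of stress transcription factors of the AP2/ERF, NAC, WRKY, bHLH and zinc finger families. Genes of photosynthesis are turned down in the same period, because carbon gain falls when stomata close while light goes on being absorbed. A drought-tolerant line can differ from its parent in how early these programmes start, how far they go, or both.

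Levels were given as FPKM, that is, fragments mapped to a gene, scaled by transcript length and by the total of mapped fragments in the library. A difference was expressed as the log2 ratio of *erf71* to WT after 0.1 FPKM was added to both, and a gene was kept when at least 1 of the libraries reached 5 FPKM. Of 37869 genes in the table, 13405 were kept and 24464 were not. With 1 library for each plant and time, the spread between plants is unknown, no test could be made, and a 2-fold difference is a threshold of size and not of significance. No read counts were used, so the depth behind each value is also unknown.

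At 6 HAT the 2 plants were close for most genes. The log2 ratio lay within 0.5 of 0 for 10493 of the 13405 genes (78.3%), and 90% of genes fell between -0.86 and 0.78. A difference of at least 2-fold was seen for 953 genes, which is 7.11% of the genes kept, with 429 higher in *erf71* (3.2%) and 524 lower (3.91%). The median level of the 429 genes was 4.18 FPKM in WT, and that of the 524 genes was 4.26 FPKM in *erf71*. Many of them thus passed 5 FPKM through the higher library only, and the filter had a part in both counts. A 4-fold difference was reached by 113 genes on the higher side (0.843%) and 141 on the lower side (1.05%). By the same rule, 7.09% of genes differed 2-fold at 0 HAT (3.12% higher, 3.97% lower) and 14.5% at 1 HAT (6.06% higher, 8.48% lower).

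The median ratio was 0.07, and 58.5% of genes were above 0. The summed FPKM of *erf71* was 106.7% of that of WT, 749309 against 702034, and the median became -0.03 when the libraries were scaled to the same sum. Ratios smaller than about 0.1 in size therefore have no settled direction. The median was larger among stronger genes. It went from 0.0016 among genes of 5 to 10 FPKM to 0.15 among the 1418 genes of 100 FPKM or more, and in this top class 48 genes were 2-fold higher and 53 were 2-fold lower.

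**Figure D1:**
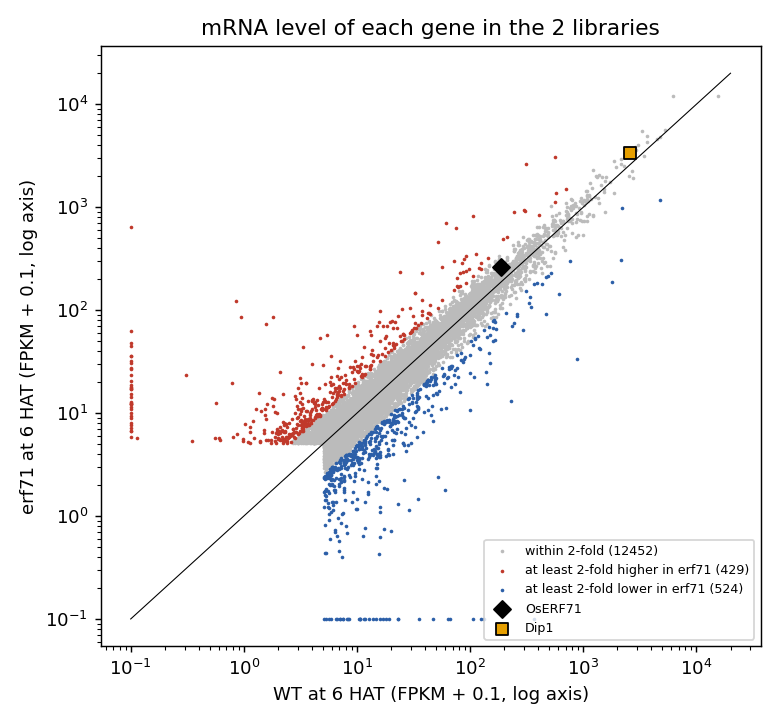
Level of each of the 13405 genes in WT (horizontal) and *erf71* (vertical) at 6 HAT, as FPKM plus 0.1 on log axes, with 1 library per plant and the line of equal levels drawn. Red and blue points are the 429 genes at least 2-fold higher and the 524 at least 2-fold lower in *erf71*. *OsERF71* and *Dip1* lie among the grey points within 2-fold, and the points along the left and lower edges are genes at or near 0 in 1 library.

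The threshold of 5 FPKM did not fall at a break in the data. The last gene inside it reached 5.00021 FPKM and had a ratio of -0.11, and the first gene outside reached 4.99938 FPKM with a ratio of 0.12. A 2-fold difference was seen in 10.9% of the 952 genes at 5 to 6 FPKM and in 11.3% of the 1166 genes at 4 to 5 FPKM.

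The transgene itself was examined first. *OsERF71* (Os06g0194000) stood at 187 FPKM in WT and 264 FPKM in *erf71* at 6 HAT. It was at 133 and 201 FPKM at 0 HAT, and at 122 and 172 FPKM at 1 HAT. *erf71* was thus the higher library at each of the 3 times, in the direction its label gives, with log2 ratios of 0.59, 0.50 and 0.50. The excess at 6 HAT was 1.42-fold, and 1476 of the 13405 genes had a higher ratio. The WT plant already carried the transcript at a high level, and it was highest at 6 HAT in both plants. FPKM per gene does not separate transcripts of the transgene from those of the native locus.

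*Dip1* (Os02g0669100), the dehydration marker by which the study chose its time points, was at 2583 FPKM in WT and 3354 FPKM in *erf71* at 6 HAT. It had been at 92.6 and 86.8 FPKM at 0 HAT and at 329 and 317 FPKM at 1 HAT. Both plants showed this marker of water loss at far higher levels at 6 HAT than before, with a ratio of 0.38 between them. The 3 genes directly linked to *OsERF71* in the study's regulatory network were within a ratio of 0.26. Os03g0701700 was at 54.2 FPKM in WT and 60.2 FPKM in *erf71*, Os10g0346600 at 64.1 and 67.0 FPKM, and Os11g0157200 at 229.5 and 274.3 FPKM.

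The stress transcription factors that the study singled out in its Module 1 discussion were near parity at 6 HAT. There are 18 of them, counting the jasmonate repressor gene *OsJAZ2*, and 16 passed 5 FPKM. At 6 HAT none of the 16 was 2-fold higher or lower, where 7.11% of all genes kept were. For a list of 16 genes, none is little different from that share. The median ratio was 0.17, and 12 were above 0, where 58.5% of all genes were. This count of 12 includes ratios too small to have a settled direction. At 1 HAT, 10 of the 16 genes that passed at that time had been at least 2-fold lower in *erf71*, against 8.48% of all genes. None of the 16 had been 2-fold higher, and their median ratio was -1.28. The study named these genes from the same plants, partly for being induced less in *erf71* between 0 and 1 HAT, so their low ratios at 1 HAT are a description. Over the 18 genes the summed level went from 319 to 2282 to 3147 FPKM in WT at 0, 1 and 6 HAT, and from 386 to 695 to 3496 FPKM in *erf71*. The sum in *erf71* was 30.5% of that in WT at 1 HAT and 111.1% at 6 HAT.

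*OsbHLH148*, a bHLH factor of jasmonate signalling, shows the sequence most clearly. In WT it was at 7.95 FPKM at 0 HAT, 443 at 1 HAT and 165 at 6 HAT. In *erf71* it was at 10.1, 38.5 and 205 FPKM. WT was past its highest level by 6 HAT while *erf71* was at its own highest, and the ratio moved from -3.52 at 1 HAT to 0.31 at 6 HAT. *OsJAZ2*, which encodes a repressor of the same pathway, was at 374 FPKM in WT and 83.3 FPKM in *erf71* at 1 HAT, and at 375 and 430 FPKM at 6 HAT. The AP2/ERF gene *OsAP59* had been at 193 FPKM in WT and 18.3 FPKM in *erf71* at 1 HAT, and was at 41.7 and 37.5 FPKM at 6 HAT.

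*SNAC1*, a NAC factor active in guard cells and known for drought tolerance when overexpressed, was the strongest of the 18. It was at 1010 FPKM in WT and 1053 FPKM in *erf71* at 6 HAT, against 491 and 117 FPKM at 1 HAT. The zinc finger genes *ZFP182* (557 and 624 FPKM) and *ZFP15* (198 and 235 FPKM) were likewise alike at 6 HAT. So were *OsERF103* at 42.9 and 47.6 FPKM, *OsAP37* at 128 and 139 FPKM, and *ONAC039* at 223 and 211 FPKM.

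The remaining differences among these factors were modest. *OsWRKY45*, a WRKY factor best known for blast resistance through salicylic acid signalling, had the highest ratio at 6 HAT, with 35.4 FPKM in WT and 67.0 FPKM in *erf71* (0.92). It had been at 214 and 105 FPKM at 1 HAT, so the WT level came down further than the *erf71* level did. *OsNAC5*, a NAC factor, was at 176 and 246 FPKM (0.48). *ZFP252* had the lowest ratio, at 27.4 FPKM in WT and 19.9 FPKM in *erf71* (-0.46). *OsDREB1F*, with 0.241 FPKM in WT and listed at 0 in *erf71*, and *ONAC045*, with 2.35 and 3.35 FPKM, stayed below the minimum at 6 HAT.

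**Figure D2:**
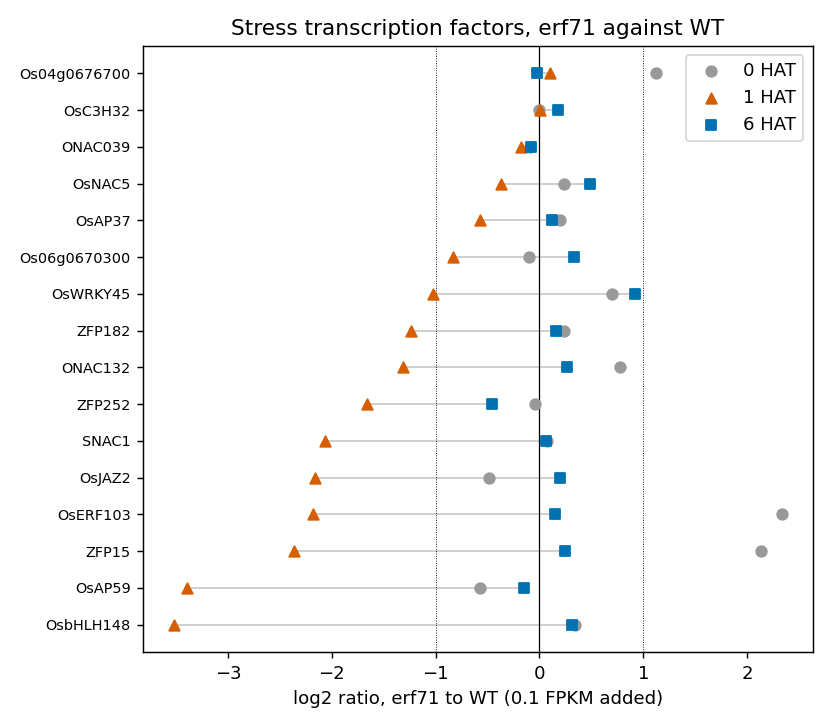
Log2 ratio of *erf71* to WT (0.1 FPKM added) for the 16 stress regulators with at least 5 FPKM at 6 HAT, at 0 HAT (circles), 1 HAT (triangles) and 6 HAT (squares), 1 library per plant and time, with dotted lines at 2-fold. At 6 HAT the squares lie between -0.46 and 0.92, inside the 2-fold lines, whereas the triangles reach -3.52.

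The hub factors of the study's cascade from *OsERF71* that passed 5 FPKM at 6 HAT were also close between the plants. Of the 17, 14 passed, with a median of 0.07 and a range from -0.82 to 0.24. None of the 14 differed 2-fold, where 7.11% of all genes kept did, so for a list this short none is little different from that share. The lowest of the 14 was Os03g0711100, which lies in Module 5 and was at 17.7 FPKM in WT and 9.99 FPKM in *erf71*. Below the minimum were Os06g0140400 (1.00 FPKM in WT and 0.134 in *erf71*, -2.23), Os01g0211800 (0.262 and 0.0974 FPKM, -0.88) and Os07g0496300 (2.62 and 2.91 FPKM, 0.15). Among the hubs that passed, *WRKY78* was at 29.0 and 24.0 FPKM (-0.27) and Os11g0544700, annotated as a repressor protein, at 38.8 and 37.0 FPKM. Os12g0597700, which resembles WRKY2, was at 86.7 and 96.9 FPKM.

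The study divided its dehydration network into 5 modules with different enriched functions, namely transcription factors of the drought response (Module 1), translation (Module 2), oxidative stress (Module 3), the cell cycle (Module 4) and photosynthesis (Module 5). The network was built in part from these libraries and the modules were picked by their 0-to-1 HAT difference between the plants, so they are no independent evidence of direction. Only the part of each module that was at hand here was used, 553, 465, 43, 972 and 478 genes. These lists hold most of Modules 1 and 4, but a minority of Modules 2 and 5 and a small fraction of Module 3, so the counts and medians describe the listed genes and not whole modules. Of the genes kept at 6 HAT, 10.7% belonged to these lists. The same held for 9.92% of the genes 2-fold lower in *erf71* but for 2.33% of the genes 2-fold higher.

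Module 1 was near parity at 6 HAT. Of its 542 genes that passed, 1 was 2-fold higher and 7 were 2-fold lower, against 3.2% and 3.91% of all genes, and the median was 0.13. At 1 HAT 164 of these 542 genes had been 2-fold lower in *erf71*, against 7.39% of all 13405 genes. Of those 164, 5 were still 2-fold lower at 6 HAT and 129 were within 0.5 of equality, and their median ratio went from 0.05 at 0 HAT to -1.72 at 1 HAT and 0.12 at 6 HAT. The summed level of the module at 6 HAT was 49280 FPKM in WT and 53677 FPKM in *erf71* (108.9%), compared with 61.5% at 1 HAT. From 0 to 6 HAT the level was up in 520 of the 542 genes in WT and in 528 in *erf71*.

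The few members of Module 1 that differed 2-fold at 6 HAT included 4 of its 105 transcription factors that passed (3.81%, about the 3.91% of all genes). Os06g0127100 was listed at 0 in both plants at 0 HAT, was at 7.56 FPKM in WT and listed at 0 in *erf71* at 1 HAT, and reached 33.5 FPKM in WT and 11.7 FPKM in *erf71* at 6 HAT (-1.51). Os09g0522200 was at 5.59 and 1.58 FPKM (-1.76) and Os01g0705700 at 10.1 and 4.68 FPKM (-1.09), and both had also been 2-fold lower at 1 HAT. Os01g0693400 was at 40.5 FPKM in WT and 19.6 FPKM in *erf71* (-1.04), close to the threshold. Outside the transcription factors, Os01g0727500 was at 46.7 and 15.0 FPKM (-1.63). The single gene on the higher side was Os10g0491000, at 126 FPKM in WT and 285 FPKM in *erf71* (1.18).

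Module 5, the photosynthesis module, was the list with the most genes lower in *erf71*. Of its 330 genes that passed, 41 were 2-fold lower (12.4%) and none was 2-fold higher, against 3.91% and 3.2% of all genes kept. Levels of the 41 in *erf71* ran from 1.63 to 232 FPKM, so some of them were below 5 FPKM there and passed through WT only. The filter thus had a part in this count. Over the 478 listed genes, whether they passed or not, the median ratio was -0.29. Among the 330 genes the median was -0.26, and 75.2% were below 0 where 41.5% of all genes kept were. The shift was not limited to the 41 genes, since the other 289 had a median of -0.20 and 207 of them were below 0. The count of 41 became 32 with 1 FPKM added in place of 0.1, 26 with a minimum of 20 FPKM, 51 with libraries scaled to the same sum and 6 at a 4-fold threshold.

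Photosynthesis transcripts were far lower in both plants at 6 HAT than before. The 478 listed genes of Module 5 together were at 143917 FPKM in WT at 0 HAT, 139373 at 1 HAT and 24954 at 6 HAT. In *erf71* they were at 127223, 95455 and 18389 FPKM. The sum in *erf71* was the lower one each time, at 88.4%, 68.5% and 73.7% of that in WT. From 0 to 6 HAT the level was down in 319 of the 330 genes in WT and in 318 in *erf71*.

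The 41 genes that were 2-fold lower at 6 HAT had started out level. Their median was 108.6 FPKM in WT and 108.3 FPKM in *erf71* at 0 HAT, 122 and 72.5 FPKM at 1 HAT, and 24.0 and 8.84 FPKM at 6 HAT. Their median ratio, -0.10 before treatment, had reached -0.72 by 1 HAT, and stood at -1.37 at 6 HAT, a value that the choice of genes fixes. At 0 HAT 33 of the 41 were within 0.5 of equality and 1 was 2-fold lower, and at 1 HAT 38 were below 0 and 7 were 2-fold lower.

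Several of the 41 were abundant. Os06g0101600 was at 4828, 3257 and 605 FPKM in WT and at 3440, 2859 and 142 FPKM in *erf71* at 0, 1 and 6 HAT, which gave ratios of -0.49, -0.19 and -2.09. Os12g0189400 was at 4312, 4874 and 464 FPKM in WT and at 3576, 2553 and 92.3 FPKM in *erf71*, with -2.33 at 6 HAT. Neither was 2-fold different before 6 HAT. The lowest ratio of the module belonged to Os06g0264800, which was at 465, 366 and 137 FPKM in WT and at 528, 297 and 25.2 FPKM in *erf71*, and so was slightly higher in *erf71* at 0 HAT and well below WT at 6 HAT (-2.44).

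Transcription factors of Module 5 behaved unevenly. Of 26 that passed, 4 were 2-fold lower (15.4%) and none was 2-fold higher, against 3.91% and 3.2% of all genes kept, and the median was 0.01. Os04g0497700 was at 140 and 145 FPKM at 0 HAT and at 50.8 FPKM in WT and 15.2 FPKM in *erf71* at 6 HAT (-1.74). The others were Os03g0251350 (6.30 and 1.63 FPKM), Os06g0571800 (10.3 and 3.41 FPKM) and Os02g0731700 (7.89 and 3.55 FPKM). These others passed 5 FPKM through WT only, so the filter had a part in the count. Across all modules 168 listed transcription factors passed, of which 8 were 2-fold lower (4.76%, near the 3.91% of all genes) and none was higher.

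None of the photosynthesis genes that the study annotated by name was 2-fold lower in *erf71* at 6 HAT with FPKM as given. Scaling the libraries to the same sum shifts every ratio by -0.09, which takes Os01g0773700 just past 2-fold. The median ratio of the listed Module 5 genes that passed was -0.26. The photosystem II reaction centre W protein gene (Os01g0773700), whose product belongs to the water-splitting photosystem, was at 507 FPKM in WT and 265 FPKM in *erf71* at 6 HAT (-0.93). It had been at 4402 and 2147 FPKM at 0 HAT, so the plants already differed to this extent before treatment. A Rubisco small subunit gene (Os12g0291100), for the enzyme that fixes carbon dioxide, was at 802 and 700 FPKM (-0.20) after 9251 and 8588 FPKM at 0 HAT.

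Further members were mixed. An ATPase gene (Os03g0278900) was at 152 FPKM in WT and 93.4 FPKM in *erf71* (-0.71), and a gene similar to fructose-1,6-bisphosphatase (Os03g0267300), an enzyme of sugar synthesis, at 23.2 and 19.7 FPKM (-0.23). The gene similar to ferredoxin-dependent glutamate synthase (Os07g0658400), which assimilates ammonium with reducing power from photosynthesis, went the other way, at 117 FPKM in WT and 153 FPKM in *erf71* (0.39). A gene similar to a nitrogen fixation protein (Os06g0694500) had the lowest ratio of these named genes among those that passed 5 FPKM, at 6.93 FPKM in WT and 3.52 FPKM in *erf71* (-0.96). None of these passed 2-fold with FPKM as given, but the shift of -0.09 from scaling to the same sum takes Os06g0694500 just past it. A gene similar to a vacuolar monosaccharide symporter (Os03g0363500), which the study names for carbohydrate movement, was at 10.6 and 13.1 FPKM (0.30).

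**Figure D3:**
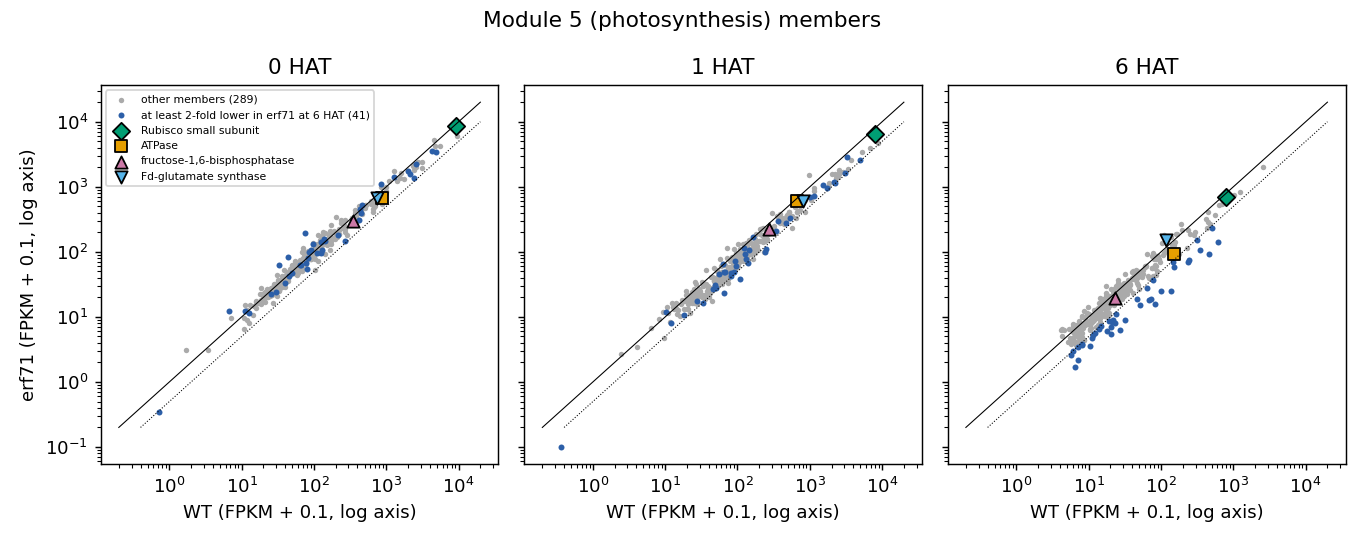
Levels of the 330 Module 5 genes kept at 6 HAT in WT (horizontal) and *erf71* (vertical) at 0, 1 and 6 HAT, as FPKM plus 0.1 on log axes, with the line of equal levels (solid) and of a 2-fold lower level in *erf71* (dotted). The 41 genes chosen for being 2-fold lower at 6 HAT (blue) lie along the solid line at 0 HAT. Most points lie further to the lower left at 6 HAT. From 0 to 6 HAT the level was down in 319 of the 330 genes in WT and in 318 in *erf71*. The summed level of all listed members went from 143917 to 24954 FPKM in WT.

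The makeup of the tissue was looked at beside these results, because the libraries come from whole plants. In bulk samples, fewer cells of a type and less RNA per cell cannot be told apart. A list of 9 green tissue markers was drawn from general knowledge. Of these, 5 are in the partial Module 5 list used here, and the study also places Os01g0773700, another of the 9, in that module. The marker list was below 0 for 9 of 9 genes at 6 HAT, with ratios from -0.94 to -0.12 and a median of -0.34. Its summed level was 5398 FPKM in WT and 3977 FPKM in *erf71* at 6 HAT, 42642 and 27142 FPKM at 1 HAT, and 47381 and 36509 FPKM at 0 HAT. The sum in *erf71* was thus 73.7% of that in WT at 6 HAT and 77.1% at 0 HAT. The part that a different amount of green tissue had in the Module 5 difference was not tested.

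Root markers gave no common direction. Of 10 such genes, also from general knowledge, 5 passed 5 FPKM at 6 HAT, and 2 of the 10 were listed at 0 in both libraries. Of the 5, 3 were 2-fold higher and 2 were 2-fold lower in *erf71*, against 3.2% and 3.91% of all genes kept. Among the 3 higher genes, Os01g0648000 (3.37 FPKM in WT and 8.51 in *erf71*) and Os06g0701700 (4.36 and 13.3 FPKM) passed through *erf71* only. The markers Os03g0107300 and Os04g0684300 are also in the partial Module 3 list. The summed level of the 10 was 138 FPKM in WT and 109 FPKM in *erf71* at 6 HAT, after 1078 and 867 FPKM at 0 HAT. Their part in any of the differences was not tested.

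Among the listed genes that passed, Modules 2 and 4 had medians near 0 at 6 HAT. In Module 2, 323 genes passed, none was 2-fold higher and 2 were 2-fold lower, and the median of 0.01 changed sign under each of the scalings tried. Its strongest gene, Os03g0820500, was at 1521 FPKM in WT and 1406 FPKM in *erf71*. In Module 4, 226 of the 972 listed genes passed, with 5 higher (2.21%), 2 lower (0.885%) and a median of -0.004. The shares of all genes kept were 3.2% and 3.91%. Over the 972 genes, whether they passed or not, the median was -0.13. Among the 5 higher genes, Os04g0570500, Os04g0659000 and Os05g0459300 passed through *erf71* only. The 2 lower genes, Os04g0465300 and Os08g0490600, passed through WT only. The same 226 genes had a median of -0.35 at 0 HAT, and the summed level of the list in *erf71* was 73.2% of that in WT at 0 HAT and 101.1% at 6 HAT.

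Module 3 was the list that stayed higher in *erf71*, though most of its genes were weak by 6 HAT. Of 43 listed genes, 10 passed, 4 were 2-fold higher (40%, against 3.2% of all genes kept), none was 2-fold lower, and the median was 0.47. Among the 4 higher genes, Os01g0915900, Os02g0131800 and Os02g0572600 were below 5 FPKM in WT and passed through *erf71* only. The filter thus had a part in this count and median. Over the 43 genes, whether they passed or not, the median was 0.14. The same 10 genes had a median of 1.24 at 1 HAT and 0.11 at 0 HAT. The strongest, Os12g0567800, was at 312, 140 and 76.4 FPKM in WT and at 1132, 1224 and 173 FPKM in *erf71* at 0, 1 and 6 HAT. It was higher in *erf71* at each time, with ratios of 1.86, 3.12 and 1.18, and it alone made up a large part of the module's sum, which was 199 FPKM in WT and 328 FPKM in *erf71* at 6 HAT. Os02g0572600 was at 3.58 and 13.0 FPKM at 6 HAT (1.83), after 13.1 and 29.6 FPKM at 1 HAT and near-equal levels of 38.4 and 37.2 FPKM at 0 HAT.

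**Figure D4:**
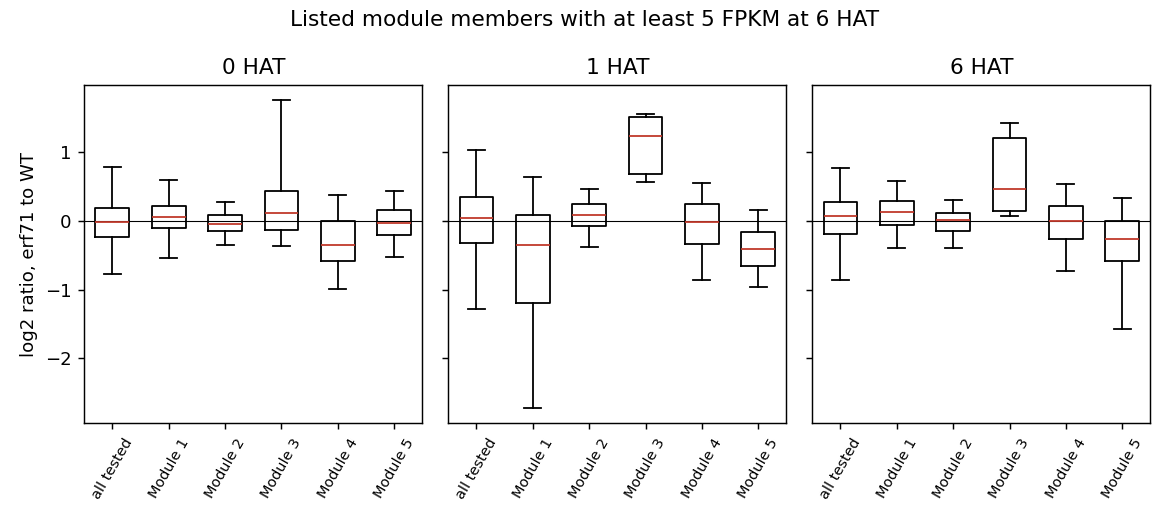
Log2 ratio of *erf71* to WT at 0, 1 and 6 HAT for all 13405 genes kept at 6 HAT and for the listed members of Modules 1 to 5 among them (542, 323, 10, 226 and 330 genes). Boxes give the quartiles over genes, red lines the medians and whiskers the 5th and 95th percentiles, which describe genes and not replicate error. Module 1 is centred at -0.35 at 1 HAT and at 0.13 at 6 HAT, and Module 5 at -0.26 at 6 HAT.

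The genes 2-fold different at 6 HAT were then looked up at 0 and 1 HAT, in libraries that had no part in choosing them. Of the 429 higher genes, 95 (22.1%) were 2-fold higher at 0 HAT and 173 (40.3%) at 1 HAT, where 3.56% and 5.37% of all 13405 genes were. These 173 genes made up 24.0% of the 720 genes 2-fold higher at 1 HAT. Of the 524 lower genes, 66 (12.6%) were 2-fold lower at 0 HAT and 137 (26.1%) at 1 HAT, where 3.1% and 7.39% of all genes were, and these 137 made up 13.8% of the 990 genes lower at 1 HAT. Opposite differences at 0 HAT were also common. Of the 524 lower genes, 90 (17.2%) had been 2-fold higher at 0 HAT, more than the 66, against 3.56% of all genes. The median ratio of the 524 at 0 HAT was 0. Of the 429 higher genes, 51 (11.9%) had been 2-fold lower at 0 HAT, against 3.1% of all genes.

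A difference in the same direction at all 3 times was seen for 58 of the higher genes (13.5%) and 28 of the lower genes (5.34%), compared with 1% and 0.783% of all genes that were 2-fold different the same way at both earlier times. Most of each set was not 2-fold different in that direction at either earlier time, 219 of the higher genes and 349 of the lower ones. Across the 13405 genes the ratio at 6 HAT followed the ratio at 1 HAT (Pearson's r = 0.17, Spearman's rho = 0.26) more than that at 0 HAT (0.02 and 0.11). Genes are not independent replicates, and these correlations describe 1 pair of libraries at each time.

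**Figure D5:**
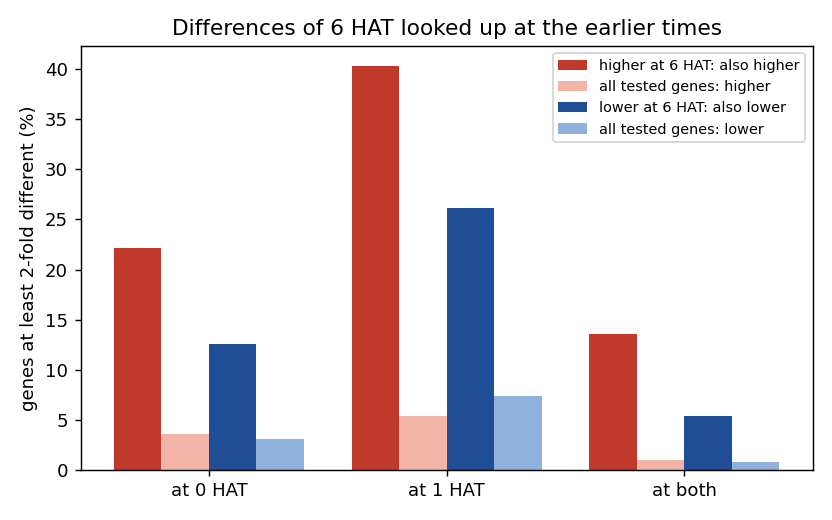
Share of genes (%) at least 2-fold different in the same direction at 0 HAT, at 1 HAT and at both, for the 429 genes higher (dark red) and the 524 lower (dark blue) in *erf71* at 6 HAT, with the shares of all 13405 genes beside them in pale colours. At 1 HAT 40.3% of the higher genes were already higher and 26.1% of the lower genes already lower. Genes 2-fold different in the opposite direction at the earlier times are not drawn.

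Followed in the other direction, the larger contrast of 1 HAT was mostly gone at 6 HAT. Of 1337 genes that were 2-fold lower in *erf71* at 1 HAT, 198 (14.8%) were still 2-fold lower at 6 HAT, 774 (57.9%) were within 0.5 of equality, and the median ratio went from -1.52 to -0.17. Of 956 genes that were 2-fold higher at 1 HAT, 251 (26.3%) were still 2-fold higher, 396 (41.4%) were within 0.5, and the median went from 1.44 to 0.42. These counts take in genes below 5 FPKM at 6 HAT. The genes were chosen by the size of their ratio at 1 HAT.

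The largest ratios belonged to genes for which no name or function was given in the sources used here. The highest among genes above 0 in both libraries was that of Os01g0666900, which was listed at 0 in both plants at 0 and 1 HAT, at 1.62e-07 FPKM in WT at 6 HAT, and at 642 FPKM in *erf71* at 6 HAT. The lowest was that of Os07g0631950, at 125 FPKM in WT and 5.04e-07 FPKM in *erf71* at 6 HAT. It had been at 5.23 FPKM in WT and 3.45e-06 FPKM in *erf71* at 1 HAT. Such near-zero estimates give no usable fold, and 30 further genes were listed at 0 in *erf71* and 30 in WT.

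Among genes different at all 3 times, Os07g0511400 stood out on the higher side. It was at 0.590, 0.683 and 1.46 FPKM in WT and at 166, 179 and 72.6 FPKM in *erf71* at 0, 1 and 6 HAT, with ratios of 7.91, 7.83 and 5.54. On the lower side, Os08g0460000 was at 184, 214 and 7.57 FPKM in WT and at 47.0, 18.6 and 1.68 FPKM in *erf71*, with ratios of -1.97, -3.51 and -2.11. For Os07g0511400 all 3 values in WT lay below all 3 in *erf71*, whereas for Os08g0460000 the WT level at 6 HAT was below the *erf71* levels at 0 and 1 HAT.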

How the data were processed

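The deposited gene table held FPKM values that the authors computed with Cufflinks for Rice Annotation Project genes, after poly(A) mRNA reads had been clipped and mapped to IRGSP-1.0 with TopHat. The submitters' processing notes also name CASAVA 1.8.2 and Bowtie. Column names give plant and hour but not library type, and were read as the mRNA-seq libraries. Log2 ratios, counts and medians were computed from the deposited FPKM with Python 3.11.15, pandas 2.3.3, numpy 2.4.6 and scipy 1.17.1, and figures with matplotlib 3.10.9. Counting was checked on simulated data. Members and gene lists were chosen with earlier results of these data known.

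Genes named in the text were the extremes of the ratio (above 0 in both libraries), the extremes persistent over the 3 times, genes named by the study, and module members past 2-fold or of highest level. For genes with no annotation, only 2 per direction are printed. Lists defined by words in gene descriptions could not be matched to any table here and are not reported. The lincRNA table (Nipponbare only) and the miRNA table were not used. Alternatives covered the pseudocount, the FPKM minimum, scaling and the fold threshold.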

Additional observations from a re-analysis of the deposited data

Results flagged for a closer look

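A set of genes differed 2-fold at 6 HAT and 2-fold the opposite way earlier. Of the 429 genes higher in *erf71* at 6 HAT, 51 (11.9%) had been 2-fold lower at 0 HAT and 40 (9.32%) at 1 HAT, where 3.1% and 7.39% of all 13405 genes were lower. Of the 524 lower genes, 90 (17.2%) had been 2-fold higher at 0 HAT and 50 (9.54%) at 1 HAT, where 3.56% and 5.37% of all genes were higher. The shares at 1 HAT were thus nearer to those of all genes than the shares at 0 HAT. Among module members, Os08g0119800 of Module 5 had a ratio of 1.38 at 0 HAT and -2.36 at 6 HAT, with 74.8 and 195 FPKM in WT and *erf71* before treatment and 81.4 and 15.8 FPKM at 6 HAT. Os02g0264800 and Os06g0266800 of Module 4 had ratios of -1.69 and -1.25 at 0 HAT and 1.04 and 1.01 at 6 HAT. Os04g0634800 of Module 1 had 1.65 at 1 HAT and -1.25 at 6 HAT. With 1 library per plant and time, these differences between times were not tested.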

How the results depend on the processing

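No paired analysis was possible because each plant had 1 library at each time, and for the same reason no replicate could be left out. The counts depended mainly on the minimum level. Without a filter 2452 genes were 2-fold higher and 2782 lower, with a minimum of 1 FPKM 1100 and 1324, with a minimum of 20 FPKM 166 and 203, and at a 4-fold threshold 113 and 141. The share of genes different the same way at all 3 times was 9.02% as reported, 7.15% without a filter and 5.91% at the 4-fold threshold. Scaling the libraries to an equal sum shifted every ratio by -0.09, gave 347 genes higher and 631 lower, and turned the median of all genes to -0.03. The 2 other scalings shifted ratios by -0.02 and -0.04. The median of Module 2 turned negative under the 3 scalings. That of Module 4 became 0.10 with a minimum of 20 FPKM, and -0.14 with a minimum of 1 FPKM or without a filter. The Module 5 count of lower genes was 26 with that minimum, 66 without a filter, 61 with a minimum of 1 FPKM and 6 at the 4-fold threshold. Of 957 values of 120 named genes under the alternatives, 917 were within 0.1 of the reported ratio and 40 moved further (36 of them with 1 FPKM added). The sign changed in 8 values of 7 genes, *SNAC1* and Os10g0346600 among them, 7 with libraries scaled to an equal sum and 1 with the median ratio. Their reported ratios were at most 0.07, and no gene past 2-fold changed sign. What produced these shifts beyond the change in the genes counted was not tested.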

Other observations

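Genes 2-fold different at 6 HAT were often loci whose number does not end in 00. Such loci were 880 of the 13405 genes (6.56%), but 19.8% of the 429 higher genes, 17.7% of the 524 lower genes and 58.7% of the 92 genes different by at least 16-fold. With these loci left out, an alternative chosen after seeing the data, 344 genes were higher and 431 lower, and the median stayed at 0.07.

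Some genes past the threshold lay next to each other among the genes kept. On the higher side 38 runs of at least 2 neighbours held 88 of the 429 genes, and on the lower side 39 runs held 81 of the 524. How many runs would arise without any clustering was not worked out. The longest run had 5 genes on chromosome 7, from Os07g0448100 to Os07g0448600. Their ratios ran from 1.47 to 2.35 at 6 HAT, from 0.26 to 2.35 at 1 HAT and from -0.29 to 2.87 at 0 HAT. The longest runs on the lower side had 3 genes.

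Chromosomes differed in balance. Of 606 genes kept on chromosome 11, 34 were higher (5.61%) and 19 lower (3.14%). Of 661 on chromosome 12, 31 were higher (4.69%) and 19 lower (2.87%). Of 1624 on chromosome 2, 36 were higher (2.22%) and 76 lower (4.68%). Of 1919 on chromosome 3, 44 were higher (2.29%) and 85 lower (4.43%). The shares of all genes kept were 3.2% and 3.91%. The other chromosomes are not printed. No test was made of these counts.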
